A study of Mus musculus with 10 samples.

Results

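Hox genes encode homeodomain transcription factors that tell the cells of an embryo where along the head-to-tail axis they lie. In the mouse they sit in clusters a, b, c and d, and the number in a gene's name, its paralogue group, follows the order of the genes along the chromosome. Genes with low numbers switch on first and mark the hindbrain and neck, those with middle numbers mark the chest, and those with high numbers switch on last and mark the lumbar and tail regions, the limb ends and the genitalia. In pluripotent cells Polycomb complexes hold the clusters silent, while retinoic acid, Wnt signals and Cdx proteins open them as mesoderm and neural tissue form. The germ line of the mouse embryo arises beside this mesoderm, and the repressor *Prdm1*, also called Blimp1, is known there for keeping Hox genes such as *Hoxb1* down.

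The genes described here are all Hox genes of the 4 clusters with at least 1 probe set on the Affymetrix mouse genome array used here that carries a single gene symbol. They number 33 of the 39 Hox genes in the mouse reference annotation and 33 of the 18194 genes with such a probe set, and they are read by 48 probe sets. Cluster a holds 9 of them, cluster b 9, cluster c 7 and cluster d 8. By paralogue number, 10 are anterior (groups 1 to 4), 13 are middle (groups 5 to 9) and 10 are posterior (groups 10 to 13). The other 6 were not analysed here. Where a gene had several probe sets, the brightest on average stands for it.

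The study compared PGC-like cells made in culture (iPGCs) with the somatic cells of the same embryoid bodies (EBs) and with the embryonic stem cells (ESCs) they came from, on 10 arrays in 5 groups of 2. All cells were sorted live by FACS, and RNA was amplified before hybridization. The iPGCs of the Oct4-Gfp line were the Oct4-gfp+/cKit bright cells of day 6 EBs, and the iPGCs of V6.5 were the SSEA1+/cKit bright cells of day 6 EBs. Somatic cells of the Oct4-Gfp line were Oct4-gfp-/cKit-, and somatic cells of V6.5 were SSEA1-/cKit-, again from day 6 EBs. The ESCs were undifferentiated SSEA1+/cKit+ cells of V6.5, at day 0. V6.5 is a line of 129xBL6 F1 background, and the Oct4-Gfp line has a mixed background and a reporter that lights up where Oct4 (*Pou5f1*) is transcribed. The EBs of all groups except the ESCs grew in hanging drops without LIF, while the ESCs grew on fibroblast feeder cells. ESCs were profiled in V6.5 only, the lines differ in sorting gate as well as in background, and no label says that replicates came from separate cultures, so p-values measure only the spread between these samples, which may be technical.

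Marker genes were read first. A list of 8 PGC genes summed to 21093 to 21649 signal units on the 4 iPGC arrays, against 1502 to 2289 on the 4 somatic arrays and 11421 to 12021 in ESCs, with *Prdm14* and *Dazl* within background on all somatic arrays. A list of 11 mesoderm and heart genes summed to 725 to 1344 in iPGCs, against 22398 to 25712 in somatic cells and 230 to 298 in ESCs. A list of 17 fibroblast genes, which the feeders also express, summed to 7647 to 9083 in iPGCs, to 34128 to 42548 in somatic cells and to 11581 to 12159 in ESCs. Median signal per array was 53.7 to 91.6. Background was set on each array as the 95th percentile of 44 olfactory receptor probe sets, genes that none of these cells should use, and lay between 12.6 and 25.4. The ratio of the 3′ to the 5′ *Gapdh* control, a sign of RNA integrity and amplification, was 2.02 and 2.37 in Oct4-Gfp iPGCs, 1.51 and 1.63 in V6.5 iPGCs, 1.65 and 2.05 in somatic cells of the Oct4-Gfp line, 1.74 and 1.73 in V6.5 somatic cells and 1.3 and 1.28 in ESCs, and its part in the results below was not tested.

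The control regions of these genes can be read for 19 of the 33, whose 21 promoters are in the RefSeq table (GRCm38.p6). The 250 bases before the start site were searched on both strands for TTTATG, a core of Cdx binding sites, and for AGGTCA, a core of retinoic acid receptor sites. The motifs can overlap, as in the *Hoxd3* promoter, where TTTATGACCT holds TTTATG and, on the other strand, AGGTCA. The promoters of *Hoxb4*, *Hoxd10* and *Hoxd9* are shown because these genes carry the comparisons below. Capitals mark AGGTCA read on the other strand.
Hoxb4, chr11:96318017-96318266, plus strand: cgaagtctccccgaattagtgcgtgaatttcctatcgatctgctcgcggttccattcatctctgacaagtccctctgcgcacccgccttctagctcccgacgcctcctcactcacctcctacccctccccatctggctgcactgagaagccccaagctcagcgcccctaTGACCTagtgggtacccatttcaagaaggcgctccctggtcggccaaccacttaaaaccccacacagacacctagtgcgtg
Hoxd10, chr2:74691641-74691890, plus strand: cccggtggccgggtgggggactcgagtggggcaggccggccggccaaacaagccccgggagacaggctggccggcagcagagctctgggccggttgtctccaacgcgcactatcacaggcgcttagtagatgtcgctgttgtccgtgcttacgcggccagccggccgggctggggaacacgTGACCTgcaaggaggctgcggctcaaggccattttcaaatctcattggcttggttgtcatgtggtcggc
Hoxd9, chr2:74697513-74697762, plus strand: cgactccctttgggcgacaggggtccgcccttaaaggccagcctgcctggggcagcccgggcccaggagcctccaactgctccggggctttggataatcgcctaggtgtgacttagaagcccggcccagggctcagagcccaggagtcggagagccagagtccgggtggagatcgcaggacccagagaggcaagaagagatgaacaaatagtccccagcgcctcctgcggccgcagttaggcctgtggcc
*Hoxb4* and *Hoxd10* hold AGGTCA in this window and *Hoxd9* holds neither set of letters. AGGTCA was found in 5 of the 21 Hox promoters (23.8%; *Hoxb4*, *Hoxc4*, *Hoxd10*, *Hoxd3* and *Hoxd8*), against 14.0% of all 32851 promoters. TTTATG was found in 3 (14.3%; *Hoxa7*, *Hoxd11* and *Hoxd3*), against 10.8% of all. Such a match is a description of the letters and not of binding. The Hox promoters had a median GC content of 59.2%, with a range of 44.4% to 80%, against a median of 52.4% over all promoters.

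The first question was which Hox genes were measured above background in each population. In Oct4-Gfp iPGCs 17 of the 33 genes were above background on both arrays, in V6.5 iPGCs 19, in Oct4-Gfp somatic cells 26, in V6.5 somatic cells 30 and in ESCs 9. The 9 in ESCs were *Hoxa7*, *Hoxa11*, *Hoxb9*, *Hoxc6*, *Hoxc13*, *Hoxd1*, *Hoxd8*, *Hoxd9* and *Hoxd13*, so that among the 10 anterior genes *Hoxd1* alone was above background on both ESC arrays. The genes at or below background on both arrays numbered 12 in Oct4-Gfp iPGCs, 10 in V6.5 iPGCs, 2 in each somatic group and 12 in ESCs. *Hoxb13* was the gene below background on all 4 somatic arrays.

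**Figure D1:**
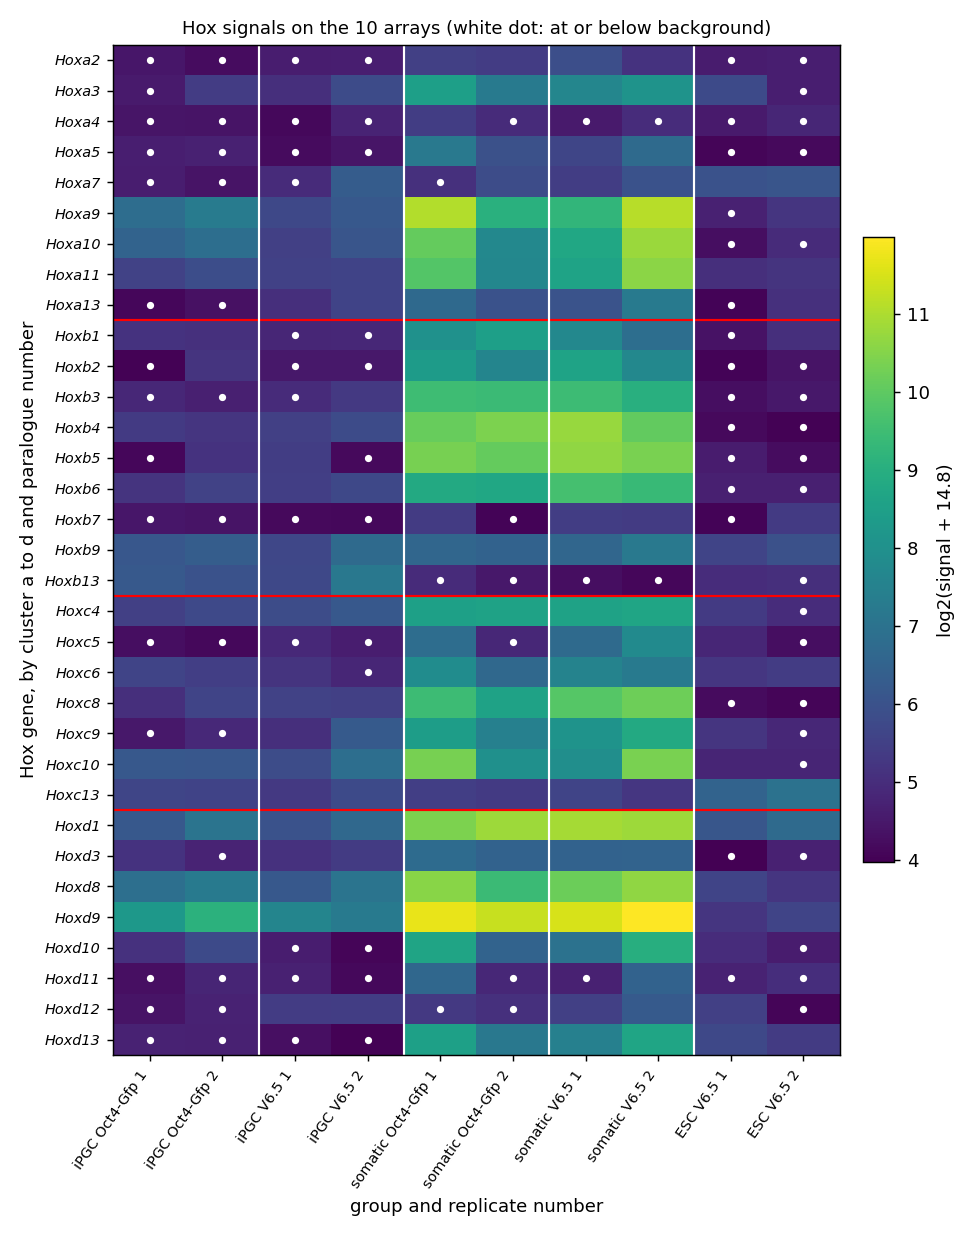
Signal of the 33 Hox genes (rows, ordered by cluster and paralogue number, red lines between clusters) on the 10 arrays (columns, by group), coloured by log2 of signal plus 14.8. White dots mark values at or below that array's background, which cover 12 of 33 genes on both ESC arrays and 2 of 33 on both arrays of each somatic group.

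Somatic cells were compared with ESCs to ask which Hox genes came on during EB differentiation. Of the 33 genes, 26 were higher in V6.5 somatic cells than in ESCs, 1 was lower (*Hoxc13*) and 6 were not called (*Hoxa4*, *Hoxa7*, *Hoxb7*, *Hoxb13*, *Hoxd11* and *Hoxd12*). These calls came from a limma fit without any filter on low signal, at an adjusted p under 0.05, in which 18.5% of all probe sets were called higher and 16.0% lower. The median log2 change was 2.72 over the Hox genes and 0.03 over all probe sets. In bulk samples such as these, fewer cells of a type and less RNA per cell cannot be told apart. Where probe sets were kept only if above the array median on at least 2 arrays, 25 Hox genes were tested, of which 24 were called higher and 1 lower, beside 30.1% and 27.2% of all tested probe sets. Most of these 25 passed the filter through the somatic arrays and so had to differ, and that count adds nothing about them. Changes are given as log2 of signal plus 14.8, with p-values from the filtered fit, or from the unfiltered fit for the 8 genes the filter removed. The filtered p-values are adjusted over fewer probe sets, and for genes that passed through the somatic arrays they carry the same limit. Calls lost without the filter were *Hoxb3* and *Hoxd3* in V6.5 iPGCs against ESCs (limma, adjusted p = 0.0522 and 0.0665) and *Hoxc10* in V6.5 iPGCs against somatic cells (adjusted p = 0.0517).

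Genes of every cluster rose. In the unfiltered fit 7 of 9 genes of cluster a were higher in V6.5 somatic cells than in ESCs, 7 of 9 of cluster b, 6 of 7 of cluster c and 6 of 8 of cluster d. By paralogue number, 9 of 10 anterior, 11 of 13 middle and 6 of 10 posterior genes were higher, with median log2 changes of 3.06, 3.43 and 2.31. Neither gene of paralogue group 7 with a probe set (*Hoxa7* and *Hoxb7*) was called. For genes within background in ESCs the fitted log2 change depends on the added 14.8 and on the probe set.

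iPGCs were compared with the somatic cells of their own line to ask how Hox genes differ between the germ-cell-like and somatic parts of an EB. In V6.5, 23 of the 33 genes were lower in iPGCs, 1 was higher (*Hoxb13*) and 9 were not called, where 13.7% of all probe sets were called lower and 12.6% higher in the unfiltered fit. In the Oct4-Gfp line, 22 were lower in iPGCs, 1 was higher (again *Hoxb13*) and 10 were not called, where 18.1% were called lower and 10.3% higher. The median log2 change was -2.63 in V6.5 and -2.83 in the Oct4-Gfp line, against 0.04 and -0.15 over all probe sets. By paralogue number, 9 of 10 anterior, 10 of 13 middle and 4 of 10 posterior genes were lower in iPGCs of V6.5, and 9, 9 and 4 in those of the Oct4-Gfp line. Among the 25 genes that passed the filter, 23 were lower in iPGCs of V6.5 and 20 in iPGCs of the Oct4-Gfp line, beside 23.2% lower and 22.2% higher of all tested probe sets in V6.5, and 27.6% lower and 19.4% higher in the Oct4-Gfp line. Here too most had passed through the somatic arrays, and the filter had removed *Hoxb13*, so these counts add nothing about the genes. Centring each array on its median moved the median of all probe sets in the Oct4-Gfp comparison to 0.34, against -0.11 without it, and gave 8719 probe sets higher and 4019 lower, against 5114 and 7289 without it. Quantile normalization gave 6319 higher and 5559 lower. With median centring 23 Hox genes were called in this comparison and with quantile normalization 21, of which 1 in each, *Hoxc13*, was higher in iPGCs, and none of the 20 called without them changed sign. The fall went with that of the mesoderm and heart markers, whose part in the result was not tested.

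iPGCs were compared with ESCs to ask whether the clusters were as quiet as in the starting cells. V6.5 iPGCs were higher than ESCs for 5 of the 33 genes (*Hoxb4*, *Hoxb6*, *Hoxc4*, *Hoxc8* and *Hoxd9*) and lower for 1 (*Hoxc13*), where 6.88% of all probe sets were called higher and 5.03% lower in the unfiltered fit, and 27 were not called. The median log2 change was 0.42, against 0.07 over all probe sets. For *Hoxc6*, 1 of 3 probe sets was called here, though not the brightest, with log2 changes of -1.19 to 0.38 over the 3. The filtered fit added *Hoxb3* and *Hoxd3* for 7 higher and 1 lower of 25 genes, beside 15.6% and 11.7% of all tested probe sets. Median centring gave 2023 probe sets higher and 3176 lower in V6.5 iPGCs than in ESCs, against 4101 and 3079 without it, and moved the median of all to -0.09. The Hox calls of this comparison leaned on single arrays. In the unfiltered fit *Hoxb4* and *Hoxc13* were left without ESC replicate 1, *Hoxd3* and *Hoxd9* were called without ESC replicate 2, and *Hoxb4*, *Hoxc13* and *Hoxd9* were left without V6.5 iPGC replicate 2. In the filtered fit 5 genes were called without ESC replicate 1, 3 without ESC replicate 2 and 5 without V6.5 iPGC replicate 2.

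**Figure D2:**
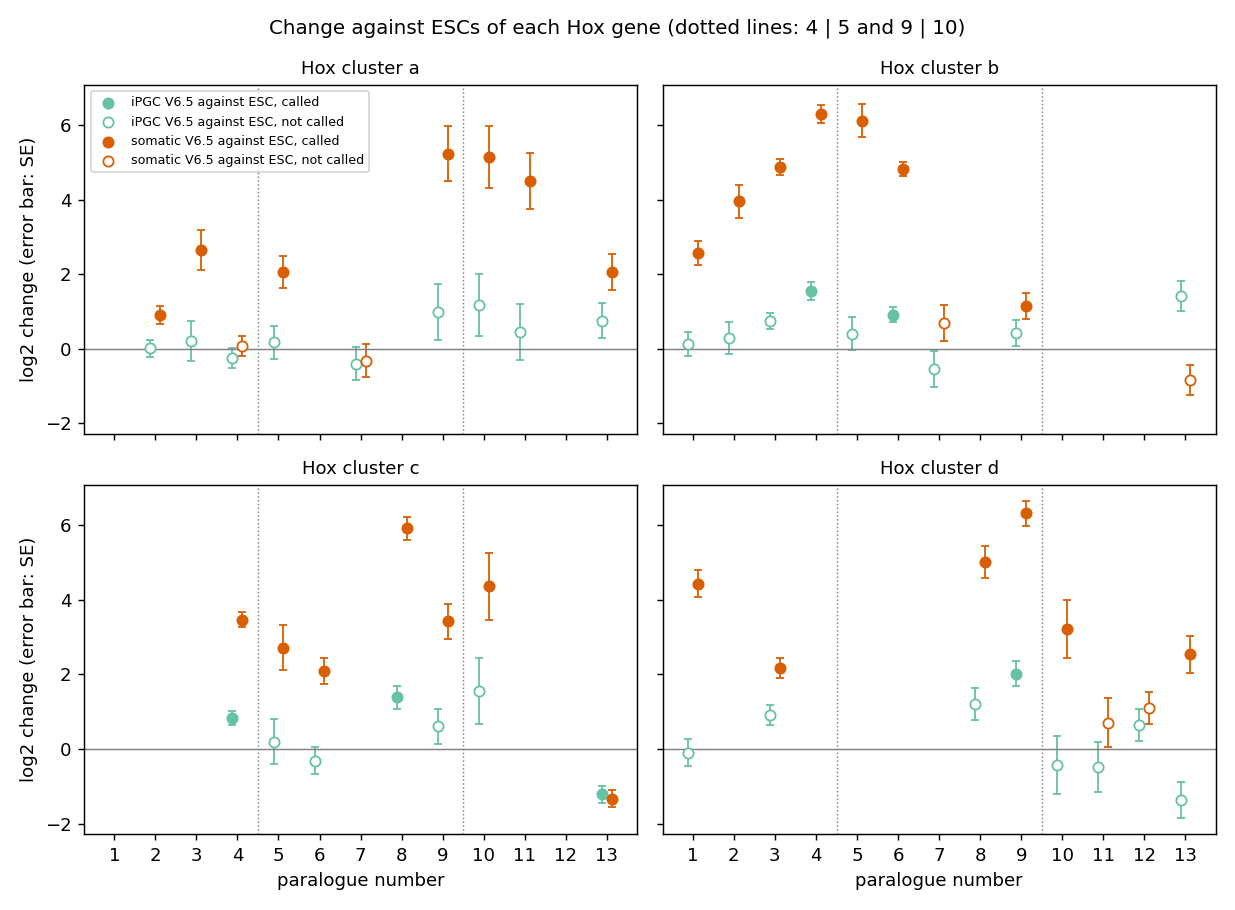
Log2 change against ESCs of V6.5 iPGCs and V6.5 somatic cells (vertical axis, on the scale of log2 of signal plus 14.8, unfiltered fit, bars are standard errors) by paralogue number (horizontal axis), in a panel for each cluster. Filled points passed an adjusted p of 0.05, which 26 genes did upward in somatic cells and 5 in iPGCs. Sizes are not comparable between genes within background in ESCs.

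Among the anterior genes, paralogue group 1 pattern the hindbrain. *Hoxb1*, which gives identity to the hindbrain segment of the facial motor neurons, had signals of 20.8 and 19.5 in Oct4-Gfp iPGCs, 13.7 and 14.6 in V6.5 iPGCs, 245 and 346 in somatic cells of the Oct4-Gfp line, 196 and 103 in V6.5 somatic cells and 6.09 and 18.5 in ESCs. The somatic arrays lay apart from all others, and V6.5 iPGCs were within background. *Hoxb1* was 2.58 ± 0.32 higher in V6.5 somatic cells than in ESCs (log2, SE; adjusted p = 0.000283). It was at least 7.67-fold lower in V6.5 iPGCs than in V6.5 somatic cells (adjusted p = 0.000504) and 3.13 lower on the log2 scale in Oct4-Gfp iPGCs than in Oct4-Gfp somatic cells (log2 change -3.13, adjusted p = 0.000148). An "at least" fold sets the brighter group against the background level of a group whose arrays were all within background. *Hoxd1*, known in the mouse for the wiring of pain-sensing neurons, had signals of 58.7 and 118 in Oct4-Gfp iPGCs, 48.5 and 87.2 in V6.5 iPGCs, 1331 and 1800 in somatic cells of the Oct4-Gfp line, 1899 and 1788 in V6.5 somatic cells and 54.1 and 93.1 in ESCs. iPGC and ESC arrays overlapped in range and were above background throughout. The log2 change of *Hoxd1* was 4.43 ± 0.36 in V6.5 somatic cells against ESCs (SE, adjusted p = 3.39e-05) and -0.10 in V6.5 iPGCs against ESCs (adjusted p = 0.853).

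Paralogue groups 2 and 3 pattern the hindbrain and the pharyngeal arches. *Hoxa2*, which specifies the skeleton of the hyoid arch, had signals of 7.25 and 4.16 in Oct4-Gfp iPGCs, 10 and 10.5 in V6.5 iPGCs, 30.6 and 27.8 in somatic cells of the Oct4-Gfp line, 44.8 and 21 in V6.5 somatic cells and 9.44 and 10.6 in ESCs. The iPGC and ESC values were all within background and the somatic ones just above it. In the unfiltered fit *Hoxa2* was at least 2.01-fold higher in V6.5 somatic cells than in ESCs (adjusted p = 0.0197; lost without either ESC array or V6.5 somatic replicate 1), at least 1.66-fold lower in V6.5 iPGCs than in V6.5 somatic cells (adjusted p = 0.0264; lost without either V6.5 iPGC array or V6.5 somatic replicate 1) and at least 1.7-fold lower in Oct4-Gfp iPGCs than in Oct4-Gfp somatic cells (adjusted p = 0.00968; lost without Oct4-Gfp iPGC replicate 2 or Oct4-Gfp somatic replicate 1). The highest adjusted p with 1 array left out was 0.103, 0.133 and 0.0672 in these comparisons. *Hoxb2*, a hindbrain gene, had signals of 1.41 and 21.4 in Oct4-Gfp iPGCs, 7.75 and 7.97 in V6.5 iPGCs, 317 and 181 in somatic cells of the Oct4-Gfp line, 380 and 197 in V6.5 somatic cells and 1.67 and 6.12 in ESCs. No somatic value of *Hoxb2* overlapped the others, and it was at least 18-fold higher in V6.5 somatic cells than in ESCs (adjusted p = 0.000163) and at least 14.8-fold lower in V6.5 iPGCs than in V6.5 somatic cells (adjusted p = 0.000327).

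*Hoxa3*, needed for the thymus and parathyroid, had signals of 8.65 and 27.9 in Oct4-Gfp iPGCs, 18.3 and 41.4 in V6.5 iPGCs, 348 and 139 in somatic cells of the Oct4-Gfp line, 186 and 256 in V6.5 somatic cells and 40 and 10.3 in ESCs. iPGCs and ESCs spanned background while every somatic array was well above it. The log2 change of *Hoxa3* was 2.65 ± 0.53 in V6.5 somatic cells against ESCs (SE, adjusted p = 0.00353), -2.44 in V6.5 iPGCs against somatic cells (adjusted p = 0.00695) and -2.90 in the Oct4-Gfp line (adjusted p = 0.00297). In each of these comparisons 2 of its 4 probe sets were called, with log2 changes of 0.22 to 2.65 in V6.5 somatic cells against ESCs. *Hoxb3* had signals of 14.4 and 10.8 in Oct4-Gfp iPGCs, 16.7 and 24.4 in V6.5 iPGCs, 710 and 672 in somatic cells of the Oct4-Gfp line, 698 and 509 in V6.5 somatic cells and 4.41 and 7.85 in ESCs. It was at least 39.2-fold higher in V6.5 somatic cells than in ESCs (adjusted p = 1.77e-06) and at least 40.2-fold lower in Oct4-Gfp iPGCs than in Oct4-Gfp somatic cells (adjusted p = 3.64e-06). Against ESCs its change in V6.5 iPGCs was at least 1.33-fold (adjusted p = 0.025), a call lost without either ESC array or without V6.5 iPGC replicate 2 (adjusted p = 0.127, 0.0658 and 0.105) and with median centring (adjusted p = 0.0731). *Hoxd3* behaved alike, at least 5.02-fold higher in V6.5 somatic cells than in ESCs (adjusted p = 0.000233) and at least 1.51-fold higher in V6.5 iPGCs (adjusted p = 0.0361), a call lost without ESC replicate 1 (adjusted p = 0.173) or without any of the 4 arrays of V6.5 iPGCs and V6.5 somatic cells (adjusted p = 0.058 to 0.131).

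Paralogue group 4 lies at the border of hindbrain and spinal cord. *Hoxb4*, known for expanding blood stem cells when overexpressed, had signals of 25.3 and 22.7 in Oct4-Gfp iPGCs, 30.6 and 41.2 in V6.5 iPGCs, 1108 and 1345 in somatic cells of the Oct4-Gfp line, 1695 and 1065 in V6.5 somatic cells and 3.46 and 1.57 in ESCs. The 3 populations did not overlap: ESCs were within background, iPGCs were just above it and somatic cells were far above both. *Hoxb4* was at least 88.4-fold higher in V6.5 somatic cells than in ESCs (adjusted p = 1.45e-06) and at least 2.33-fold higher in V6.5 iPGCs than in ESCs (adjusted p = 0.00356). Its other probe set had log2 changes of 2.86 and 0.22 in these comparisons, and the iPGC change was not called there. The log2 change between iPGCs and somatic cells was -4.75 in V6.5 (adjusted p = 5.39e-06) and -4.99 in the Oct4-Gfp line (adjusted p = 5.04e-06). *Hoxc4* had signals of 30.7 and 38.7 in Oct4-Gfp iPGCs, 43 and 57.2 in V6.5 iPGCs, 355 and 374 in somatic cells of the Oct4-Gfp line, 373 and 396 in V6.5 somatic cells and 25.7 and 17.4 in ESCs. Its somatic arrays agreed within narrow limits, and its log2 change was 3.47 ± 0.17 in V6.5 somatic cells against ESCs (SE, adjusted p = 3.73e-06) and 0.84 ± 0.17 in V6.5 iPGCs against ESCs (SE, adjusted p = 0.0119). The iPGC call for *Hoxc4* was lost without ESC replicate 2 (adjusted p = 0.0796) or V6.5 iPGC replicate 2 (adjusted p = 0.0516) and with median centring (adjusted p = 0.0697). *Hoxa4* was at or near background everywhere (3.11 to 28.1 signal units on the 10 arrays) and was called in no comparison.

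The middle genes pattern the chest. *Hoxb5*, known in the mouse for long-term blood stem cells and for the enteric nervous system, had signals of 2.47 and 21.1 in Oct4-Gfp iPGCs, 28.8 and 3.37 in V6.5 iPGCs, 1276 and 1075 in somatic cells of the Oct4-Gfp line, 1608 and 1324 in V6.5 somatic cells and 9.07 and 4.05 in ESCs. In each iPGC group 1 array was above background and 1 was within it. *Hoxb5* was at least 95.9-fold higher in V6.5 somatic cells than in ESCs (adjusted p = 2.12e-05), and its log2 change between iPGCs and somatic cells was -5.71 in V6.5 (adjusted p = 4.14e-05) and -5.58 in the Oct4-Gfp line (adjusted p = 4.76e-05). *Hoxb6*, a gene of the lateral mesoderm, had signals of 21.7 and 32.6 in Oct4-Gfp iPGCs, 29.3 and 38.1 in V6.5 iPGCs, 444 and 411 in somatic cells of the Oct4-Gfp line, 773 and 651 in V6.5 somatic cells and 10.7 and 10.7 in ESCs. Its order was that of *Hoxb4*, with somatic cells at least 46.6-fold and V6.5 iPGCs at least 2.19-fold above ESCs (adjusted p = 1.45e-06 and 0.00846). The iPGC call for *Hoxb6* was lost without ESC replicate 2 (adjusted p = 0.0501).

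*Hoxc8*, which patterns the lower ribs and the motor neurons of the forelimb, had signals of 18.6 and 34.5 in Oct4-Gfp iPGCs, 32 and 30.5 in V6.5 iPGCs, 697 and 370 in somatic cells of the Oct4-Gfp line, 933 and 1179 in V6.5 somatic cells and 3.6 and 2.04 in ESCs. Every iPGC array was above background and every ESC array within it. It was at least 69-fold higher in V6.5 somatic cells than in ESCs (adjusted p = 4.03e-06) and at least 2.06-fold higher in V6.5 iPGCs than in ESCs (adjusted p = 0.0139), a call lost without either ESC array (adjusted p = 0.0536 and 0.0753) or with a floor in place of the added 14.8 (adjusted p = 0.0622). *Hoxd8* had signals of 104 and 136 in Oct4-Gfp iPGCs, 58.1 and 119 in V6.5 iPGCs, 1488 and 684 in somatic cells of the Oct4-Gfp line, 1149 and 1609 in V6.5 somatic cells and 34.3 and 22.2 in ESCs. iPGCs lay between ESCs and somatic cells without overlap, though the log2 change of 1.21 in V6.5 iPGCs against ESCs did not pass (adjusted p = 0.0629). The log2 change of *Hoxd8* was 5.01 ± 0.41 in V6.5 somatic cells against ESCs (SE, adjusted p = 3.82e-05).

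Paralogue group 9 spans the chest and the base of the limbs. *Hoxd9*, whose promoter above held neither set of letters, had signals of 288 and 547 in Oct4-Gfp iPGCs, 181 and 138 in V6.5 iPGCs, 3353 and 2527 in somatic cells of the Oct4-Gfp line, 2863 and 4046 in V6.5 somatic cells and 22.7 and 33.9 in ESCs. All 10 arrays were above background and the 3 populations did not overlap. The log2 change of *Hoxd9* against ESCs was 6.32 ± 0.33 in V6.5 somatic cells (SE, adjusted p = 4.25e-06) and 2.02 ± 0.33 in V6.5 iPGCs (SE, adjusted p = 0.00462). *Hoxa9*, known for blood stem cells and leukaemia, had signals of 99.9 and 145 in Oct4-Gfp iPGCs, 38.2 and 57.5 in V6.5 iPGCs, 2144 and 515 in somatic cells of the Oct4-Gfp line, 591 and 2246 in V6.5 somatic cells and 11.5 and 22.3 in ESCs. The replicates of each somatic group differed from each other more than the group means did. The log2 change was 5.23 ± 0.74 in V6.5 somatic cells against ESCs (SE, adjusted p = 0.000567), and -4.24 in V6.5 and -2.98 in Oct4-Gfp iPGCs against somatic cells (adjusted p = 0.00222 and 0.0116). The Oct4-Gfp call was lost without Oct4-Gfp somatic replicate 1 (log2 change -1.97, adjusted p = 0.0701) or Oct4-Gfp iPGC replicate 1 (adjusted p = 0.0594), and the other probe set of *Hoxa9* had log2 changes of 2.07, -1.73 and -1.77 in these comparisons (adjusted p = 0.0471, 0.1 and 0.0908).

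*Hoxc9*, which sets the motor neurons of the chest apart from those of the limbs, had signals of 7.82 and 15.4 in Oct4-Gfp iPGCs, 18.2 and 61.9 in V6.5 iPGCs, 331 and 161 in somatic cells of the Oct4-Gfp line, 257 and 444 in V6.5 somatic cells and 22.1 and 14.4 in ESCs. It was at least 13.4-fold lower in Oct4-Gfp iPGCs than in Oct4-Gfp somatic cells (adjusted p = 0.000898), with a log2 change of 3.43 ± 0.47 in V6.5 somatic cells against ESCs (SE, adjusted p = 0.000495). *Hoxc5* had signals of 4.54 and 3.03 in Oct4-Gfp iPGCs, 15.4 and 9.6 in V6.5 iPGCs, 99.8 and 14.2 in somatic cells of the Oct4-Gfp line, 92.1 and 211 in V6.5 somatic cells and 14.1 and 4.56 in ESCs. Every iPGC value was within background, and so was 1 of the 4 somatic ones. *Hoxc5* was at least 7.53-fold lower in V6.5 iPGCs than in V6.5 somatic cells (adjusted p = 0.0102), a call lost without V6.5 somatic replicate 2 (adjusted p = 0.0696). In the Oct4-Gfp line its log2 change of -1.64 did not pass on this probe set (adjusted p = 0.0549), while 1 of its 3 probe sets did. The other middle genes were *Hoxa5*, *Hoxa7*, *Hoxb7*, *Hoxb9* and *Hoxc6*. *Hoxa5* and *Hoxc6*, which act in the lung and chest, were called lower in iPGCs in both lines, *Hoxa5* at least 3.1-fold in V6.5, a call lost without V6.5 somatic replicate 2 (adjusted p = 0.0585), and at least 4.65-fold in the Oct4-Gfp line. Their probe sets disagreed, with 1 of 2 (*Hoxa5*) and 1 of 3 (*Hoxc6*) called in V6.5 somatic cells against ESCs. *Hoxb7* and *Hoxa7* were called in no comparison. *Hoxb9* had a log2 change of 1.14 ± 0.34 in V6.5 somatic cells against ESCs (SE, adjusted p = 0.0221), lost without ESC replicate 1 or V6.5 somatic replicate 2, and was above background on all 10 arrays (34.2 to 135 signal units).

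The posterior genes pattern the lumbar and sacral spine, the limb ends and the urogenital tract. *Hoxa10*, which acts in the uterus and suppresses ribs on lumbar vertebrae, had signals of 77.5 and 102 in Oct4-Gfp iPGCs, 30.8 and 53.3 in V6.5 iPGCs, 1077 and 194 in somatic cells of the Oct4-Gfp line, 417 and 1743 in V6.5 somatic cells and 4.65 and 16.7 in ESCs. iPGCs were above background on all 4 arrays and ESCs on none. *Hoxa10* was at least 56.1-fold higher in V6.5 somatic cells than in ESCs (adjusted p = 0.00115) and had a log2 change of -3.97 in V6.5 iPGCs against somatic cells (adjusted p = 0.00557) and of -2.21 in the Oct4-Gfp line, which did not pass (adjusted p = 0.0595). The other probe set of *Hoxa10* had a log2 change of 0.91 in V6.5 somatic cells against ESCs and was not called. *Hoxa11*, needed for the kidney and the forearm, had signals of 32.5 and 44 in Oct4-Gfp iPGCs, 31.6 and 33.1 in V6.5 iPGCs, 901 and 191 in somatic cells of the Oct4-Gfp line, 376 and 1535 in V6.5 somatic cells and 18.2 and 21.7 in ESCs. Its log2 change was 4.49 ± 0.75 in V6.5 somatic cells against ESCs (SE, adjusted p = 0.00137). In iPGCs against somatic cells it was -4.05 in V6.5 (adjusted p = 0.00306) and -3.04 in the Oct4-Gfp line (adjusted p = 0.0115), the second of which was lost without Oct4-Gfp somatic replicate 1 (adjusted p = 0.0656) or Oct4-Gfp iPGC replicate 1 (adjusted p = 0.0553).

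*Hoxc10*, a lumbar and hindlimb gene, had signals of 58 and 57 in Oct4-Gfp iPGCs, 42.8 and 103 in V6.5 iPGCs, 1280 and 243 in somatic cells of the Oct4-Gfp line, 232 and 1314 in V6.5 somatic cells and 13 and 13.2 in ESCs. The lowest somatic array was above the highest iPGC array. The log2 change was 4.36 ± 0.89 in V6.5 somatic cells against ESCs (SE, adjusted p = 0.00379), -2.80 in V6.5 iPGCs against somatic cells (adjusted p = 0.0338) and -3.00 in the Oct4-Gfp line (adjusted p = 0.0252). The V6.5 call with iPGCs was lost in the unfiltered fit (adjusted p = 0.0517), without V6.5 somatic replicate 2 (adjusted p = 0.2) and without any 1 of the ESC and iPGC arrays (adjusted p = 0.0506 to 0.14). The Oct4-Gfp call was lost without either Oct4-Gfp iPGC array (adjusted p = 0.0828 and 0.0938) or without Oct4-Gfp somatic replicate 1 (adjusted p = 0.158). *Hoxd10*, whose promoter above held AGGTCA, had signals of 19.8 and 40.6 in Oct4-Gfp iPGCs, 9.99 and 2.2 in V6.5 iPGCs, 387 and 77.2 in somatic cells of the Oct4-Gfp line, 114 and 502 in V6.5 somatic cells and 17.2 and 9.26 in ESCs. V6.5 iPGCs were within background, and *Hoxd10* was at least 12.9-fold lower there than in V6.5 somatic cells (adjusted p = 0.00616). In the Oct4-Gfp line *Hoxd10* was not called between iPGCs and somatic cells in the filtered or the unfiltered fit (means of 30.2 and 232). Its log2 change was 3.22 ± 0.78 in V6.5 somatic cells against ESCs (SE, adjusted p = 0.00853), lost without V6.5 somatic replicate 2 (adjusted p = 0.0543).

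Paralogue group 13 marks the ends of the axis, the digits and the genital tubercle. *Hoxd13*, a digit gene, had signals of 11.9 and 11.6 in Oct4-Gfp iPGCs, 5.04 and 1.6 in V6.5 iPGCs, 357 and 131 in somatic cells of the Oct4-Gfp line, 163 and 400 in V6.5 somatic cells and 37.3 and 27 in ESCs. All 4 iPGC arrays were within background while both ESC arrays were above it. *Hoxd13* was at least 13.8-fold lower in V6.5 iPGCs (adjusted p = 0.000389) and at least 12.6-fold lower in Oct4-Gfp iPGCs (adjusted p = 0.00122) than in their somatic cells, and its difference between V6.5 iPGCs and ESCs did not pass (adjusted p = 0.069). *Hoxa13*, which acts with *Hoxd13* in the digits, was higher in V6.5 somatic cells than in ESCs in the unfiltered fit (log2 change 2.07 ± 0.48, SE, adjusted p = 0.0111), a call lost without ESC replicate 1 or V6.5 somatic replicate 2 (adjusted p up to 0.0728). It was at least 3.89-fold lower in Oct4-Gfp iPGCs than in somatic cells (adjusted p = 0.0118), a call lost without either Oct4-Gfp iPGC array or Oct4-Gfp somatic replicate 1 (adjusted p up to 0.0845). In V6.5 it was not called between iPGCs and somatic cells (means of 25.8 and 93.5), and both V6.5 iPGC arrays were above background. *Hoxd11* and *Hoxd12* lay between 2.04 and 85.1 signal units on the 10 arrays and were called in no comparison.

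*Hoxc13* and *Hoxb13* went against the other Hox genes. *Hoxc13*, the gene of hair and nail growth, had signals of 35.4 and 33.1 in Oct4-Gfp iPGCs, 24.7 and 40.6 in V6.5 iPGCs, 28.9 and 26 in somatic cells of the Oct4-Gfp line, 33.9 and 23.4 in V6.5 somatic cells and 77.9 and 112 in ESCs. Both ESC arrays were above every other array. Its log2 change against ESCs was -1.33 ± 0.22 in V6.5 somatic cells (SE, adjusted p = 0.00137) and -1.21 ± 0.22 in V6.5 iPGCs (SE, adjusted p = 0.00738), the second of which was lost without ESC replicate 2 (adjusted p = 0.052), and it was 0.12 between V6.5 iPGCs and somatic cells (adjusted p = 0.699). With median centring or quantile normalization it was called higher in Oct4-Gfp iPGCs than in somatic cells. Of 17 fibroblast markers 14 were above background in Oct4-Gfp somatic cells, 15 in V6.5 somatic cells and 13 in the ESCs, which had grown on feeders and were sorted as SSEA1+/cKit+, and their part in this result was not tested. *Hoxb13*, a gene of the tail and the prostate, had signals of 59.7 and 49.5 in Oct4-Gfp iPGCs, 37.9 and 130 in V6.5 iPGCs, 16.4 and 7.94 in somatic cells of the Oct4-Gfp line, 4.67 and 2.45 in V6.5 somatic cells and 17.2 and 18.3 in ESCs. The 4 iPGC arrays were above all 6 others. In the unfiltered fit *Hoxb13* was at least 3.85-fold higher in V6.5 iPGCs than in V6.5 somatic cells (adjusted p = 0.00477), with an adjusted p of 0.000372 to 0.0335 as each of the 10 arrays was left out. It was at least 2.4-fold higher in Oct4-Gfp iPGCs than in Oct4-Gfp somatic cells (adjusted p = 0.0384), a call lost without any 1 of the arrays other than those of V6.5 iPGCs (adjusted p up to 0.16). Its log2 change of 1.42 in V6.5 iPGCs against ESCs did not pass (adjusted p = 0.0609). *Hoxa7*, which was called in no comparison, had signals of 9.87 and 6.43 in Oct4-Gfp iPGCs, 16.3 and 64.5 in V6.5 iPGCs, 19.1 and 42.2 in somatic cells of the Oct4-Gfp line, 28.5 and 49.4 in V6.5 somatic cells and 48.7 and 53.1 in ESCs.

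**Figure D3:**
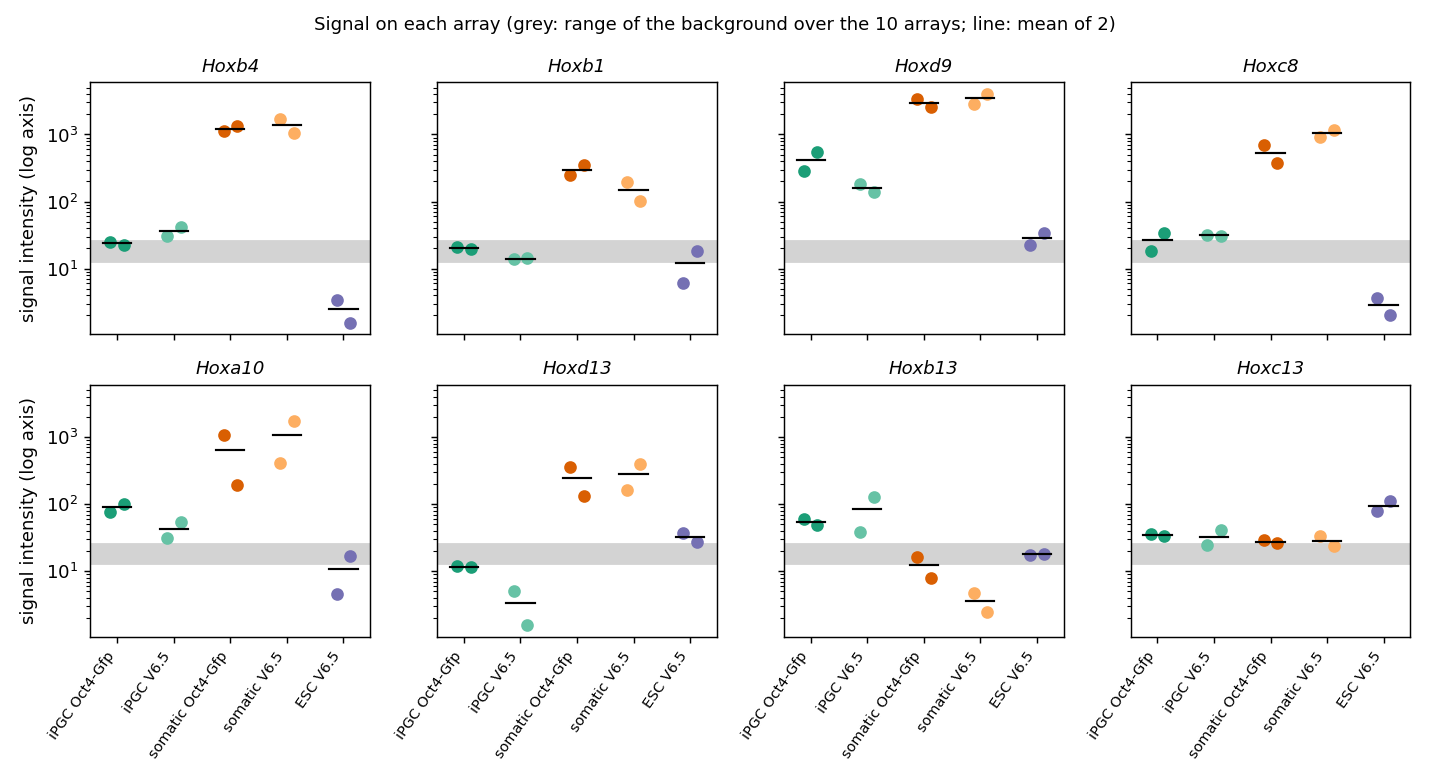
Signal (logarithmic vertical axis) of Hoxb1, Hoxb4, Hoxd9, Hoxc8, Hoxa10, Hoxd13, Hoxb13 and Hoxc13 on the 2 arrays of each group (points), with the mean of the 2 as a line and the range of background, 12.6 to 25.4, in grey. The somatic points are highest in 6 panels, the iPGC points in the Hoxb13 panel and the ESC points in the Hoxc13 panel.

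The size of the iPGC signal can be set against that of somatic cells for genes above background on all 4 arrays of a line. This leaves out genes within background in iPGCs, such as *Hoxb3* in the Oct4-Gfp line (means of 12.6 in iPGCs and 691 in somatic cells). The low end and the median of the shares thus depend on that choice, and background was not subtracted. In the Oct4-Gfp line 16 genes had iPGC means of 1.96% (*Hoxb4*) to 125% (*Hoxc13*) of the somatic mean, with a median of 9.36%. In V6.5 18 genes had 2.6% (*Hoxb4*) to 114% (*Hoxc13*), with a median of 7.93%. The signal of *Hoxd9* in iPGCs was 14.2% of that in somatic cells in the Oct4-Gfp line and 4.63% in V6.5, and that of *Hoxa9* was 9.2% and 3.37%. Measured the same way, 9 mesoderm and heart markers had a median of 3.42% in the Oct4-Gfp line (1.98% to 28.6%) and of 5.32% in V6.5 (1.45% to 140%). The Hox shares in iPGCs and those of the mesoderm and heart markers thus overlapped in range, and whether sorted iPGCs held some somatic cells was not tested.

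The lines were compared for each population to ask whether Hox genes depended on the line. No Hox gene was called between Oct4-Gfp and V6.5 somatic cells, between Oct4-Gfp and V6.5 iPGCs, or for the difference between lines in the change from somatic cells to iPGCs, in the unfiltered or the filtered limma fit. Over all probe sets 0.00444%, 0% and 0% were called in the unfiltered fit and 0.0834%, 0% and 0.0152% in the filtered fit. At an unadjusted p under 0.05, 4 Hox genes were past the threshold between somatic cells in the unfiltered fit, 3 between iPGCs and 1 for the difference, and in the filtered fit 4, 1 and 1. Over all probe sets these were 4428, 6450 and 4333 of 45037 in the unfiltered fit. In the filtered fit they were 3287, 5526 and 2758 of 26368. The Hox counts are thus no result about these genes. *Hoxd9* was 1.25 ± 0.33 higher on the log2 scale in Oct4-Gfp iPGCs than in V6.5 iPGCs (SE, adjusted p = 0.103), and the difference between the lines in its change was 1.48 ± 0.46 (SE, adjusted p = 0.383). *Hoxb1* had a log2 difference of 0.96 between Oct4-Gfp and V6.5 somatic cells (adjusted p = 0.303).

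The posterior genes separated the somatic arrays of each line from each other. *Hoxa10* was at 1077 and 194 in Oct4-Gfp somatic cells and at 417 and 1743 in V6.5 somatic cells, and *Hoxa9*, *Hoxa11*, *Hoxc10*, *Hoxd10*, *Hoxd11* and *Hoxd13* followed the same pattern, high on Oct4-Gfp replicate 1 and V6.5 replicate 2. The difference of replicate 2 minus replicate 1 in Oct4-Gfp and in V6.5 somatic cells was -2.39 and 2.03 on the log2 scale for *Hoxa10*, -2.15 and 1.99 for *Hoxa11*, -2.33 and 2.43 for *Hoxc10*, -2.13 and 2.01 for *Hoxd10* and -1.35 and 1.23 for *Hoxd13*. It was 0.28 and -0.66 for *Hoxb4* and 0.47 and -0.84 for *Hoxb1*, so that these genes did not share it. The direction, high on Oct4-Gfp replicate 1 and V6.5 replicate 2, was taken from these same Hox values, so the shares below do not test it. Differences past 1 in this direction in both lines were found for 9 of the 33 Hox genes (27.3%). These were 6 of 10 posterior (60.0%), 3 of 13 middle (23.1%) and 0 of 10 anterior genes. Over all tested probe sets it was 57 of 26368 (0.216%), and 23 differed as much in the opposite direction, of which 0 were Hox genes. That set was filtered and lacked some of the 33 Hox genes, such as *Hoxd11*, so the shares are on unlike sets. By cluster, the Hox genes with the pattern were 4 of 9 in cluster a, 0 of 9 in cluster b, 2 of 7 in cluster c and 3 of 8 in cluster d. The median absolute difference between somatic replicates was 1.56 in the Oct4-Gfp line and 1.50 in V6.5 for posterior genes, 0.36 and 0.44 for anterior genes and 0.23 and 0.16 over all tested probe sets. Mesoderm and heart genes summed to 23222 and 22398 in Oct4-Gfp and to 24513 and 25712 in V6.5 somatic cells, neural genes to 923 and 574 and to 767 and 1060, endoderm genes to 1565 and 982 and to 928 and 1576, and blood genes to 5701 and 3835 and to 21235 and 16997. Neural and endoderm sums were thus high on the same arrays as the posterior Hox genes. The endoderm sum included *Ttr*, at 529 and 192 in Oct4-Gfp and at 267 and 721 in V6.5 somatic cells. *Apoa1*, *Hhex* and *Afp* of that list went the same way, though *Afp* was within background on both Oct4-Gfp somatic arrays and near it in V6.5 (15.4 and 20.1). *Sox17*, at 146 and 221 in Oct4-Gfp and at 105 and 82.8 in V6.5, and *Cer1* went the other way. *Cer1* was also within or near background, at 14.7 and 20.4 in Oct4-Gfp and at 21.7 and 6.3 in V6.5. *Foxa1* and *Foxa2* differed between the lines. Of the neural list *Sox1*, *Neurog2* and *Olig2* were within background in both somatic groups. The part of these markers in the result was not tested.

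**Figure D4:**
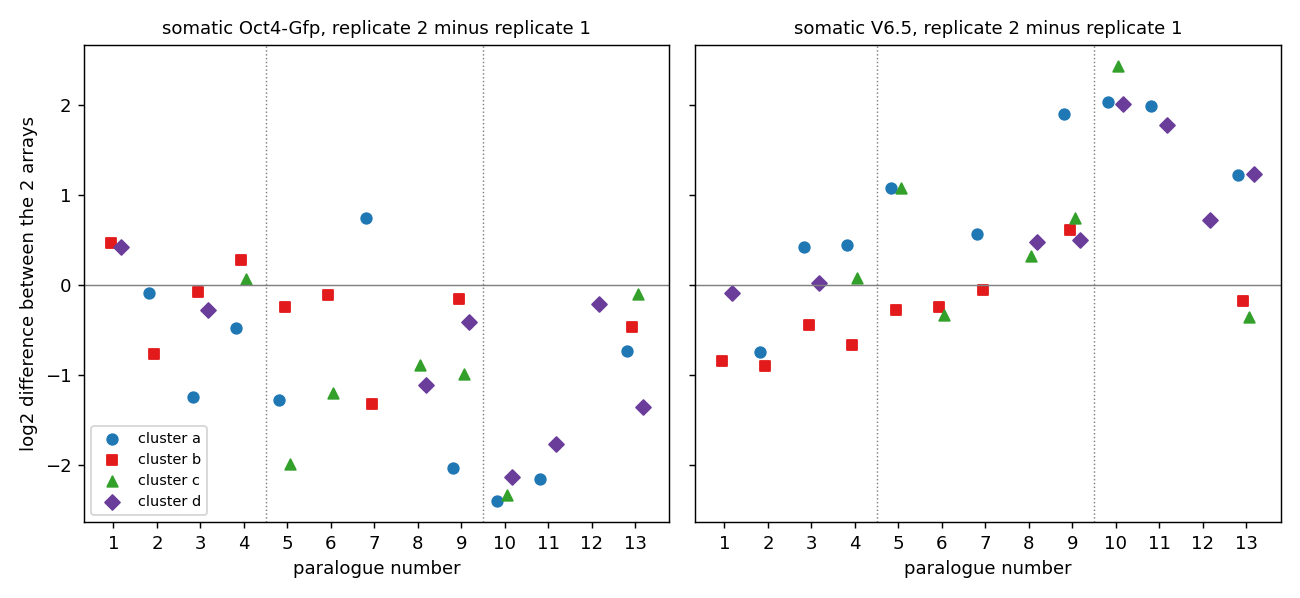
Difference between the somatic replicates (replicate 2 minus replicate 1, log2 of signal plus 14.8, vertical axis) of each Hox gene by paralogue number (horizontal axis), for the Oct4-Gfp line on the left and V6.5 on the right. The median of the posterior genes is -1.56 in the Oct4-Gfp line and 1.50 in V6.5, and that of the anterior genes is -0.08 and -0.26.

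The genes that act on the clusters or with their products were read from 5 lists, counted in the filtered fit only. Members that passed that filter through the somatic arrays, such as *Cyp26a1* below, had to differ, and for those the counts add nothing. Of 12 upstream regulators and cluster neighbours, 5 were tested, of which 3 were higher and 2 lower in V6.5 somatic cells than in ESCs (median log2 change 1.89, against 0.04 over all tested probe sets, of which 30.1% were higher and 27.2% lower), and 4 were higher and 1 lower in V6.5 iPGCs than in ESCs (median 1.59, against 0.07 over all, of which 15.6% were higher and 11.7% lower). *Cdx2*, the caudal factor that opens middle and posterior Hox genes, had signals of 531 and 649 in Oct4-Gfp iPGCs, 550 and 265 in V6.5 iPGCs, 3075 and 1722 in somatic cells of the Oct4-Gfp line, 1874 and 2373 in V6.5 somatic cells and 25.6 and 29.3 in ESCs. iPGCs thus lay between ESCs and somatic cells, with log2 changes of 3.24 ± 0.37 in V6.5 iPGCs against ESCs (SE, adjusted p = 0.00132) and -2.42 in V6.5 iPGCs against somatic cells (adjusted p = 0.00112). *Evx1*, the neighbour of *Hoxa13* and a gene of the primitive streak, followed the same order (3.02 and -1.36 on the log2 scale, adjusted p = 0.000208 and 0.00046). *Prdm1* had signals of 1002 and 745 in Oct4-Gfp iPGCs, 1137 and 814 in V6.5 iPGCs, 66.5 and 52.9 in somatic cells of the Oct4-Gfp line, 29.7 and 84.4 in V6.5 somatic cells and 293 and 327 in ESCs. It was higher in iPGCs, with a log2 change of 3.88 ± 0.36 in V6.5 iPGCs against somatic cells (SE, adjusted p = 9.01e-05) and 1.59 against ESCs (adjusted p = 0.0159). *Cdx1* was lower in V6.5 iPGCs than in ESCs (log2 change -0.98, adjusted p = 0.0262).

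Of 9 TALE homeodomain proteins, the cofactors with which Hox proteins bind DNA, 8 were tested, of which 6 were higher and 1 lower in V6.5 somatic cells than in ESCs (median 1.55, against 0.04, with 30.1% of all tested probe sets higher and 27.2% lower). In each line 6 were lower and 1 higher in iPGCs than in somatic cells, where 23.2% of all were lower and 22.2% higher in V6.5 and 27.6% and 19.4% in the Oct4-Gfp line. *Meis2* had signals of 128 and 130 in Oct4-Gfp iPGCs, 89.1 and 103 in V6.5 iPGCs, 1355 and 1314 in somatic cells of the Oct4-Gfp line, 1354 and 1439 in V6.5 somatic cells and 5.85 and 14.2 in ESCs. Like *Hoxd9*, it did not overlap between the 3 populations. Its ESC values were within background, and it was higher than there in V6.5 somatic cells (adjusted p = 8.28e-07) and in V6.5 iPGCs (adjusted p = 0.000497), with a log2 change of -3.68 in V6.5 iPGCs against somatic cells (adjusted p = 5.06e-06). *Pknox2* changed by 4.93 in V6.5 somatic cells against ESCs (adjusted p = 3.29e-06), while *Pbx4* was the member that was lower there (log2 change -3.09, adjusted p = 0.000649). Of 19 retinoic acid genes 11 were tested, with 5 higher and 2 lower in V6.5 somatic cells than in ESCs (median 0.32, against 0.04, with 30.1% and 27.2% of all) and 2 higher and 6 lower in V6.5 iPGCs than in somatic cells (with 22.2% and 23.2% of all). The shares lower in somatic cells and higher in iPGCs were near those of all probe sets and are no result about these genes. *Cyp26a1*, the enzyme that breaks retinoic acid down, had signals of 57.4 and 77.2 in Oct4-Gfp iPGCs, 45.8 and 84.4 in V6.5 iPGCs, 934 and 865 in somatic cells of the Oct4-Gfp line, 487 and 451 in V6.5 somatic cells and 14.2 and 21.5 in ESCs, and was lower in iPGCs than in somatic cells in both lines (log2 change -2.64 in V6.5, adjusted p = 9.38e-05). *Stra8*, a retinoic acid target of the germ line, was higher in iPGCs than in somatic cells (log2 change 2.89 in V6.5, adjusted p = 4.73e-05). It was at 310 and 337 in ESCs, against 237 and 207 in Oct4-Gfp iPGCs and 205 and 337 in V6.5 iPGCs. *Stra8* was called lower in V6.5 somatic cells than in ESCs and was not called between V6.5 iPGCs and ESCs.

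Of 25 Polycomb and trithorax genes, which keep Hox clusters off or on, 24 were tested. In V6.5 somatic cells 6 were higher and 10 lower than in ESCs (median -0.34, against 0.04, with 30.1% and 27.2% of all tested probe sets), and in V6.5 iPGCs 13 were higher and 5 lower than in somatic cells (median 0.40, against 0.05, with 22.2% and 23.2% of all). The shares higher in somatic cells and lower in iPGCs were near those of all probe sets and are no result about these genes. *Cbx7*, a Polycomb subunit of pluripotent cells, had signals of 774 and 860 in Oct4-Gfp iPGCs, 971 and 1068 in V6.5 iPGCs, 186 and 229 in somatic cells of the Oct4-Gfp line, 162 and 174 in V6.5 somatic cells and 1098 and 1116 in ESCs. Its log2 change was -2.62 ± 0.15 in V6.5 somatic cells against ESCs (SE, adjusted p = 5.82e-06) and -0.12 in V6.5 iPGCs against ESCs (adjusted p = 0.571). *Kdm6b*, a demethylase that removes the Polycomb mark, had signals of 343 and 154 in Oct4-Gfp iPGCs, 196 and 170 in V6.5 iPGCs, 2709 and 2109 in somatic cells of the Oct4-Gfp line, 1925 and 2009 in V6.5 somatic cells and 1416 and 834 in ESCs. All iPGC arrays were below all others for *Kdm6b*, and its log2 change in V6.5 iPGCs was -3.33 ± 0.37 against somatic cells (SE, adjusted p = 0.000213) and -2.48 ± 0.37 against ESCs (SE, adjusted p = 0.00339). In V6.5 iPGCs against ESCs 2 of the 24 were higher and 3 lower, beside 15.6% and 11.7% of all tested probe sets, which is no result about the list. The 2 were *Ring1* and *Suz12*, a core subunit of the complex that writes the mark (log2 change 0.55 for *Suz12*, adjusted p = 0.0206). The 3 were *Phf19*, *Phc1* and *Kdm6b*. The 5 lower in V6.5 iPGCs than in somatic cells were *Bmi1*, *Cbx2*, *Phc2*, *Men1* and *Kdm6b*. Of 4 cluster boundary factors, all tested, *Rad21* of the cohesin complex was the member called between V6.5 iPGCs and ESCs (log2 change 0.72, adjusted p = 0.01). Of all tested probe sets 15.6% were higher and 11.7% lower there. *Rad21* was also higher in iPGCs than in somatic cells in both lines, and *Ctcf* in the Oct4-Gfp line, beside 22.2% (V6.5) and 19.4% (Oct4-Gfp) of all. With 4 members such counts are no result about the list. The adjusted p of the 4 lay between 0.126 and 0.831 in V6.5 somatic cells against ESCs.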

How the data were processed

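RNA of 10 sorted samples was amplified and hybridized to Affymetrix mouse genome arrays. The authors deposited 1 table of linear probe set intensity values for 45101 probe sets (0.0142 to 30783 signal units), each array scaled to a trimmed mean of 500. The submitters' processing notes name MAS5, while the methods name D-Chip, and the table does not say which was used. Depth does not apply to arrays, whose number limits the precision.

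From these, log2(signal + 14.8) entered a limma (version 3.58.1, under R 4.3.3) model of 5 groups, 5 residual and 2.92 prior degrees of freedom, Benjamini-Hochberg adjustment and calls at 0.05. The 14.8 is the 25th percentile of the table. The 64 control probe sets were left out. The filtered fit kept 26368 probe sets above the array median on at least 2 arrays, and the unfiltered fit held 45037. Python 3.11.15 with pandas 2.3.3 made the tables. Symbols came from the platform annotation (34958 probe sets with 1 symbol, 932 with several, 9211 with none). The script was tested on simulated data.

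Values on every array are given for the 20 Hox genes with the largest log2 change among those called, for Hoxa2 and Hoxc13, which the study names, and for up to 4 members of each list. The Hox genes, marker lists and pathway lists were chosen with earlier results of these data known. Alternatives covered the offset, filter, scaling, variance model, probe set choice, replicate block, samples fitted and each array left out. Leaving out arrays in the unfiltered fit and comparing the somatic replicates were added after the data were seen.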

Additional observations from a re-analysis of the deposited data

How the results depend on the processing

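The filtered fit called 25 Hox genes in V6.5 somatic cells against ESCs, 8 in V6.5 iPGCs against ESCs, 23 in V6.5 iPGCs against somatic cells, 20 in Oct4-Gfp iPGCs against somatic cells and 0 between lines. Testing only probe sets above the median on at least 5 arrays gave 6, 1, 6 and 5, since few Hox genes were then tested. Fitting only the arrays compared gave 5 in V6.5 iPGCs against ESCs. limma-trend gave 1 between Oct4-Gfp and V6.5 iPGCs. Leaving out 1 array gave 23 to 25, 3 to 10, 20 to 23 and 17 to 23 in the order above, and 0 between lines. In V6.5 iPGCs against ESCs the lowest was without ESC replicate 2 and the highest was without either Oct4-Gfp somatic array. In the unfiltered fit, a choice made after seeing the data, leaving out 1 array gave 22 to 28, 2 to 6, 18 to 25 and 15 to 25, against 27, 6, 24 and 23 with all arrays, and 0 between lines. No label says that the replicate numbers pair the samples. Deviations of same-numbered arrays correlated between -0.292 and 0.262, which cannot show whether they shared a batch of EBs. With the replicate block 25, 7, 22, 20 and 0 genes were called, *Hoxd3* in V6.5 iPGCs against ESCs (adjusted p = 0.0564) and *Hoxc10* in V6.5 iPGCs against somatic cells (adjusted p = 0.0526) being lost. Median centring gave 19 probe sets higher and 5 lower for the difference between lines, against 1 and 3. Of 76 calls of single genes, 62 were kept under every alternative that could be run; in 1451 values 51 lost the call and 0 changed sign. The cause of these changes was not tested. Genes near background, such as *Hoxa2*, *Hoxa4* and *Hoxd11*, carry bounds at most.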

Other observations

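Probe sets of genes other than the Hox genes above were picked after their values were seen. They shared the somatic pattern of the posterior genes, high on Oct4-Gfp replicate 1 and V6.5 replicate 2, or its opposite. *Hoxa11os*, the RNA antisense to *Hoxa11*, had signals of 126 and 13.7 in Oct4-Gfp somatic cells and 9.55 and 177 in V6.5 somatic cells. *Tbx4*, a hindlimb and allantois factor, had 390 and 59.8 in Oct4-Gfp and 162 and 725 in V6.5 somatic cells. *Prrx1*, a gene of limb mesenchyme, had 214 and 53.7 in Oct4-Gfp and 73.5 and 255 in V6.5 somatic cells, and *Nkx1-2*, a gene of the caudal embryo, had 1342 and 377 in Oct4-Gfp and 386 and 952 in V6.5 somatic cells. The opposite pattern was seen for *Myl7*, an atrial myosin light chain, with 33.6 and 228 in Oct4-Gfp and 85.9 and 6.97 in V6.5 somatic cells, and for *Smoc2*, a matrix protein, with 96.9 and 637 in Oct4-Gfp and 1874 and 678 in V6.5 somatic cells. With 2 arrays a group these differences between replicates carry no test.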
